A study of Homo sapiens with 2 samples.

Results

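Transcripts of the cholesterol pathway were measured in the human colorectal cancer line SW48 after treatment with AKBA, or acetyl-11-keto-β-boswellic acid, which is a pentacyclic triterpenoid from the gum resin of Boswellia trees. The genes described are 27 named members of sterol synthesis, its control by the transcription factor SREBP2, and intracellular sterol transport, looked up by gene symbol among the 18852 genes that the annotation of the array names, where 26 were found. Their rule uses no measured value, but they were chosen with earlier results of these arrays known. The treated culture had AKBA at 20 µM for 6 days. The control is given as 0.1% dimethyl sulfoxide vehicle in the treatment protocol and as not treated in the source name, so the part of the vehicle in a difference cannot be told apart from that of AKBA. Both cultures grew in medium with fetal bovine serum, which carries lipoprotein cholesterol. Each condition was 1 culture on 1 Illumina bead array of 48803 probes. With 1 array per group no gene could be tested, no p-value is given, and every difference has no replicate check: "higher" and "lower" describe these 2 arrays.

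Cells build cholesterol from acetyl-CoA by way of mevalonate, squalene and lanosterol. When membranes of the endoplasmic reticulum hold little sterol, the escort protein SCAP carries SREBP2 to the Golgi, where proteases release its transcription factor domain, and the genes of synthesis and uptake are transcribed. When sterol is plentiful, INSIG proteins retain SCAP in the endoplasmic reticulum. INSIG1 is itself a target of SREBP2, so its transcript is a common reporter of the pathway.

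The AKBA array was dimmer as a whole, with a mean deposited signal of 365 against 425 on the control array. It detected 11329 probes (23.2%), and the control array 12389 (25.4%), where detected means a detection p under 0.01 against the negative control beads. Detection began at a signal of 138 (control) and 141 (AKBA). Of 9 markers of colon epithelium, 6 were detected on both arrays, namely EPCAM, CDH1, KRT8, KRT18, KRT19 and CDX2, and KRT20, VIL1 and LGALS4 on neither. All 5 fibroblast markers and the 3 of 4 leukocyte markers that had a named probe were below the detection limit. Signals are given as deposited. Folds and log2 differences, always AKBA minus control, are given after background correction and quantile normalization, which evens out the brightness of the arrays.

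The 26 members with a named probe had 36 probes in all, and 24 members were detected, each on both arrays. CYP51A1, the lanosterol demethylase, and INSIG1 were higher on the AKBA array by more than 1.5-fold, and no member was lower by that much. The other 22 lay within 1.5-fold. These counts depend on the scaling: with the arrays set to equal medians, which moved the median of all detected genes to -0.32, 0 members were higher and 3 lower (LSS, NSDHL and HSD17B7), and in the authors' processed values 2 members stood 1.5-fold above the control and HSD17B7 that far below it. Relative to the median of detected genes, both gave 2 higher and 0 lower. Of the 24, 18 stood above the median of all detected genes, which was -0.02, and 6 below it. The median over the members was 0.15 on the log2 scale, and the members ran from -0.51 for HSD17B7 to 0.77 for CYP51A1. Their standard deviation, 0.31, was close to that over all genes detected on both arrays, 0.30.

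The background for these counts is the share of all genes past the same fold. Of 8639 genes detected on at least 1 array, 2.91% stood above the control by at least 1.5-fold and 4.36% below it. Among the 7930 detected on both arrays, as all 24 members were, the shares were 2.69% and 2.81%. The 2 members higher by 1.5-fold are few enough that a share of 24 says little. At a smaller mark, 0.32 on the log2 scale, 5 members were higher (CYP51A1, INSIG1, NPC1, DHCR7 and GGPS1) and 3 lower (HSD17B7, NSDHL and LSS), where 11.5% of the genes detected on both arrays were higher and 12.3% lower. Of the genes detected on both arrays, 52.3% lay above the median of all detected genes, against 75% of the members.

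**Figure D1:**
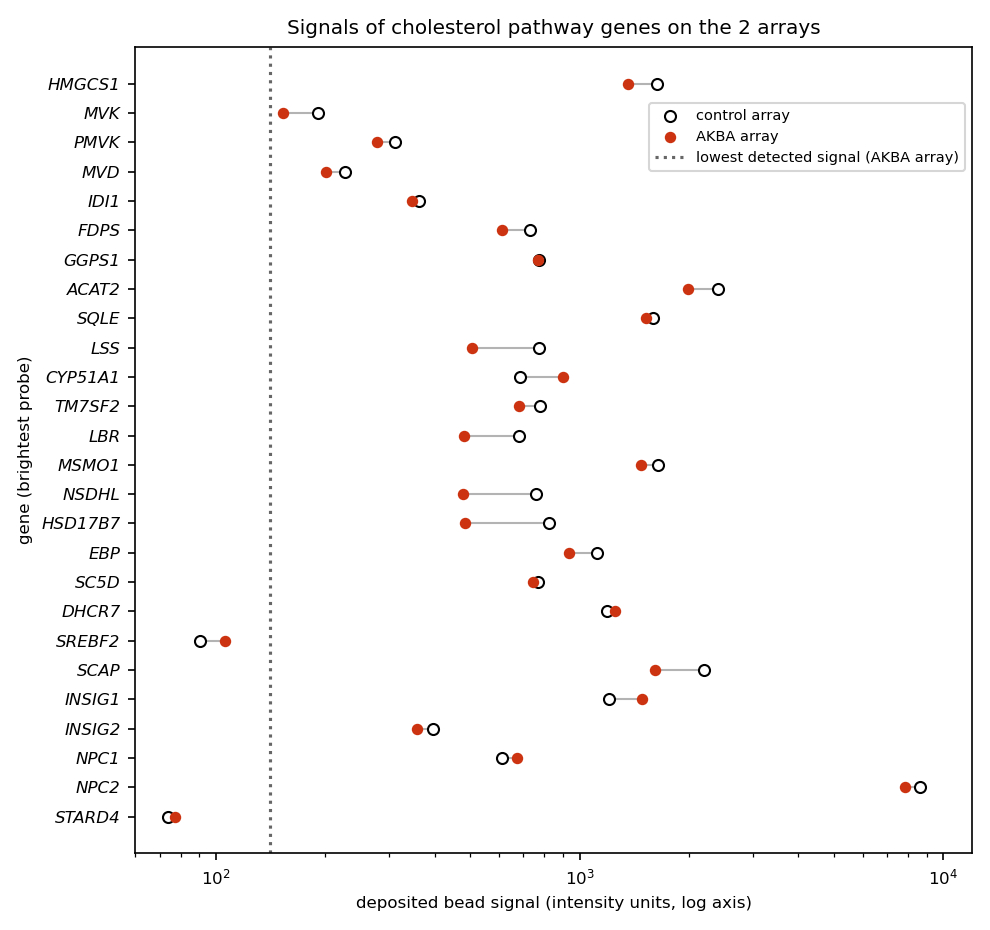
Deposited bead signal (log axis, intensity units) of the brightest probe of each of the 26 members with a named probe, in pathway order, on the control array (open circles) and the AKBA array (filled circles). The dotted line is the lowest detected signal of the AKBA array, 141; SREBF2 and STARD4 lie below it, and among detected genes CYP51A1, INSIG1, NPC1 and DHCR7 have the higher signal on the AKBA array.

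The promoters are shown here for the members on which the description turns. These are the pair past 1.5-fold, the member furthest below the control, and SREBF2, the gene of SREBP2. Each is a RefSeq window of GRCh38.p14 from 250 bases before to 50 after a transcript start, written 5′ to 3′ on the strand of the gene. Capitals mark CCAAT, the box bound by NF-Y, and CACNCCAC, a short form of the sterol regulatory element that SREBP binds, on either strand.
CYP51A1, chr7:92134428-92134727, minus strand: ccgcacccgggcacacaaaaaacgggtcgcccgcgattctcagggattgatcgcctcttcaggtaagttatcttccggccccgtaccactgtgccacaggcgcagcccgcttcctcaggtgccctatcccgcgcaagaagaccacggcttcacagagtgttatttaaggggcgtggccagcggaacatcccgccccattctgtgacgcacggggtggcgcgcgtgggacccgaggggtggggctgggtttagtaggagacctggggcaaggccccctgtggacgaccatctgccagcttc
INSIG1, chr7:155297628-155297927, plus strand: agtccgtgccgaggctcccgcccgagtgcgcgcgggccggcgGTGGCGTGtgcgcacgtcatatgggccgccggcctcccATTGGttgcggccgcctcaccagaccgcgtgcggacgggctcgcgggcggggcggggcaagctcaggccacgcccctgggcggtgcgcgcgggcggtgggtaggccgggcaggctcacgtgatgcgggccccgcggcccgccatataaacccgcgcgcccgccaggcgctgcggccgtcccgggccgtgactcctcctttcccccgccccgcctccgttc
HSD17B7, chr1:162790452-162790751, plus strand: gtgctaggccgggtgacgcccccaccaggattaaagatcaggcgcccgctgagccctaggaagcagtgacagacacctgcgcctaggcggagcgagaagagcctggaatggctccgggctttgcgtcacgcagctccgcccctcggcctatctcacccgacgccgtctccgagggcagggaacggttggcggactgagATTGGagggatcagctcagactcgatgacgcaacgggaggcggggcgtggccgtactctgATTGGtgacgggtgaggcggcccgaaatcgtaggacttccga
SREBF2, chr22:41832855-41833154, plus strand: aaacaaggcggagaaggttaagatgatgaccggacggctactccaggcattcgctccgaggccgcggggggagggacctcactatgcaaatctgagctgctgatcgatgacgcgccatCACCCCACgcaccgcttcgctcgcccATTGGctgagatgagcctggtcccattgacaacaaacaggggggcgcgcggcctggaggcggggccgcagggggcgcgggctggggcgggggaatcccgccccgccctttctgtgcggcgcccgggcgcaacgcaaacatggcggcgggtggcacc

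RefSeq windows were used for 24 of the 27 members, without ACAT2, FDFT1 and SQLE. CCAAT was in a window of 18 of the 24 members (75%), and in those of 42.1% of 15843 protein-coding genes. CACNCCAC was in windows of 4 members (16.7%), IDI1, INSIG1, SC5D and SREBF2, and of 7.98% of protein-coding genes. The longer form TCACNCCAC, which overlaps it, was in 1 member, SREBF2 (1.51% of protein-coding genes), where it begins 133 bases before the start site. The CYP51A1 window matched none of these motifs, and the HSD17B7 window held CCAAT at 2 places. A match describes the letters of a window and does not show a bound site, and a missing match says only that these letters are not there. The motif lengths were chosen after the promoters had been searched, and other motifs searched are not reported, so the shares are a description only.

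Early enzymes stood close to the control. HMGCS1, which condenses acetyl-CoA with acetoacetyl-CoA, gave 1636 with the control and 1355 with AKBA, a log2 difference of 0.07 after normalization. ACAT2, the cytosolic thiolase that supplies acetoacetyl-CoA, had 2407 and 1989 and stood at 0.03. Both were dimmer on the AKBA array before normalization and level with the control after it. A second ACAT2 probe was below the detection limit on both arrays, with 81.2 and 68.6.

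The kinases and the decarboxylase of mevalonate were dim. Mevalonate kinase (MVK) had signals of 191 and 152, the latter just above the lowest detected, and stood at -0.15. Phosphomevalonate kinase (PMVK) had 311 and 278 and stood at 0.16. Mevalonate diphosphate decarboxylase (MVD) had 227 and 201 and stood at 0.11. The 3 enzymes act in sequence, and their differences were smaller than the median gap of 0.20 between probes of a single gene, which is described below.

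The isoprenoid enzymes ranged higher. IDI1, the isomerase that makes dimethylallyl diphosphate, had signals of 363 and 347 and stood at 0.28. FDPS, which makes farnesyl diphosphate, the last intermediate shared by sterols and other isoprenoids, had 729 and 612 and stood at 0.08. The RefSeq table lists 3 pseudogenes under the symbol of IDI1 and 10 under that of FDPS, and their part in these signals was not tested. GGPS1, which extends farnesyl diphosphate to geranylgeranyl diphosphate for protein prenylation, had 775 and 769.6, nearly equal despite the dimmer AKBA array, and was 1.26-fold higher after normalization. The 8 genes from ACAT2 to GGPS1 had a median difference of 0.09, and MVK was the one below the median of detected genes.

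The next steps commit carbon to sterols. FDFT1, squalene synthase, had no named probe and is not analysed here. Squalene epoxidase (SQLE), the first oxygen-requiring step, had signals of 1591 and 1527 with its brighter probe and stood at 0.28, and its other probe gave 0.13. Lanosterol synthase (LSS), which closes the sterol rings, had 773 and 506 and stood at -0.33. A further LSS probe, detected on the control array only, had 147 and 112. SQLE and LSS act one after the other and stood on opposite sides of the control after quantile normalization. With the arrays set to equal medians, SQLE also stood below the control, at -0.03.

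CYP51A1 removes the 14-alpha methyl group of lanosterol. It read 688 with the control and 902 with AKBA, so it was brighter on the dimmer array even before normalization. It was 1.70-fold higher and ranked 107th from the highest of 8639 detected genes. A single named probe measured it, so no other probe checks its size, and 3 pseudogenes are listed under its symbol, whose part in the signal was not tested.

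The C14 reductases that act on the product of CYP51A1 did not share its position. TM7SF2 had signals of 778 and 681 and stood at 0.14. LBR, which is also a protein of the inner nuclear membrane, had 682 and 480.4 with its brightest probe and stood at -0.21, and a second detected probe stood at -0.10. MSMO1, NSDHL and HSD17B7 then remove the methyl groups at carbon 4 in turn, as oxidase, decarboxylase and ketone reductase. The brightest MSMO1 probe had 1641 and 1480 and stood at 0.18. A second MSMO1 probe, annotated to another transcript of the gene, had 431 and 490.5 and stood at 0.56, or 1.48-fold higher, so the size for MSMO1 depends on the probe.

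NSDHL and HSD17B7 were lower on the AKBA array. NSDHL had signals of 759.8 and 478, a difference of -0.39. HSD17B7 had 824 and 483, a difference of -0.51, and was 1.42-fold lower, the 528th lowest of 8639 detected genes. Each was measured by 1 probe, and the table lists 2 pseudogenes under the HSD17B7 symbol, whose part in its signal was not tested. Within this demethylation step, MSMO1 therefore stood above the control by each of its detected probes after quantile normalization, and the enzymes that follow it below. With the arrays set to equal medians, the brightest MSMO1 probe also stood below the control, at -0.12.

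The last enzymes of the route stood at or above the control after quantile normalization. EBP, the isomerase that moves the sterol double bond, had signals of 1115 and 936 and stood at 0.07. SC5D, the C5 desaturase, had 769.6 and 745 and was 1.23-fold higher. DHCR7, which reduces 7-dehydrocholesterol, had 1191 and 1252 with its brighter probe and 1118 and 1076 with the other. DHCR7 was 1.34-fold higher by the first and stood at 0.29 by the second, so both probes placed it above the control. Of the 9 enzymes after lanosterol, 6 stood above the median of detected genes and 3 below, with a median of 0.14.

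**Figure D2:**
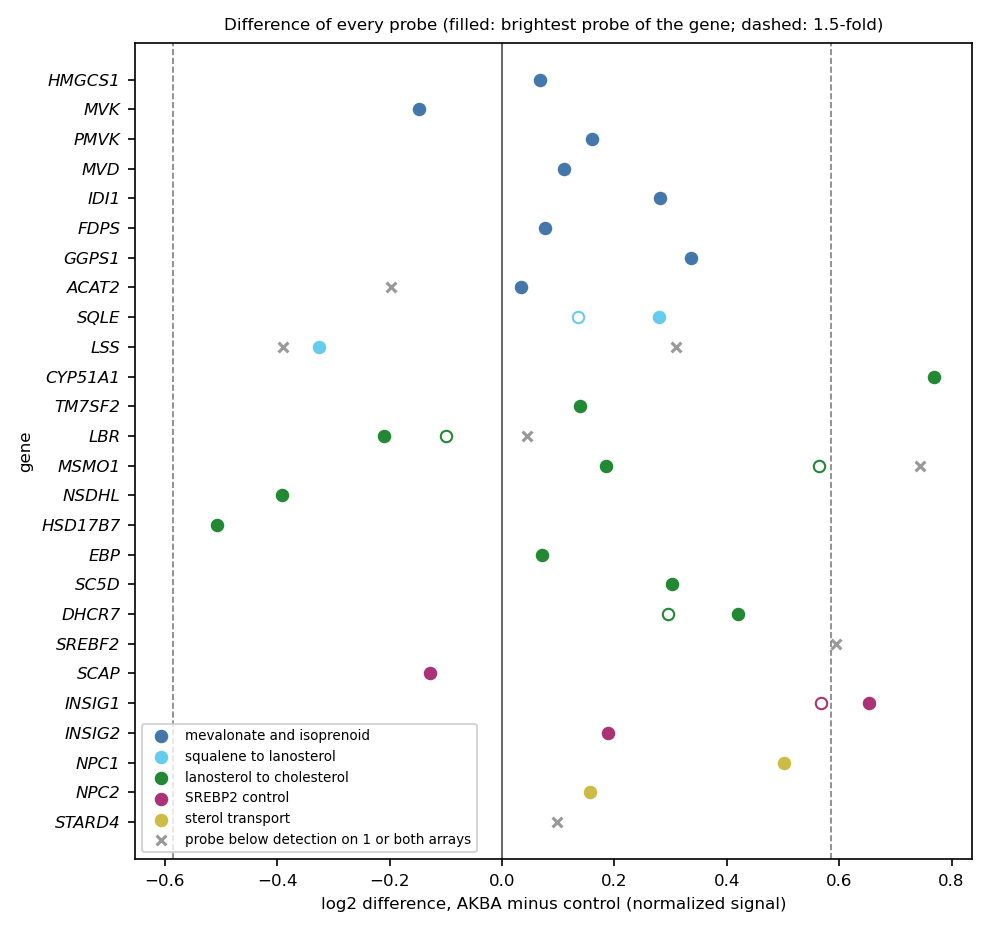
Log2 difference, AKBA minus control, of every probe of the members in pathway order after normalization. Filled circles are the brightest probe of a gene, open circles further probes detected on both arrays, and crosses probes below detection on 1 or both arrays; colours give the pathway step and dashed lines 1.5-fold. CYP51A1 (0.77) and INSIG1 (0.65) are the detected genes past a dashed line, and HSD17B7 (-0.51), NSDHL (-0.39) and LSS (-0.33) lie lowest.

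Among the genes that control the pathway, INSIG1 stood furthest from the control. Its brighter probe had signals of 1204 and 1489, was 1.57-fold higher and ranked 182nd from the highest. Its second probe, near the detection limit with 167 and 185, stood at 0.57. INSIG2, a paralog that also retains SCAP, had 394 and 357 and stood at 0.19. SCAP had 2198 and 1615 and stood at -0.13.

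SREBF2 was below the detection limit on both arrays. Its single named probe read 90.3 with the control (detection p of 0.0975) and 106 with AKBA (0.0198), and no fold is given. The transcript of the factor that drives the pathway was thus not measurable with this probe, and SREBP2 acts through cleavage of its protein, which an array of transcripts does not measure.

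Of the members of sterol transport, NPC1 and NPC2 act on cholesterol that enters cells in lipoproteins. NPC1, the lysosomal membrane protein that exports it, had signals of 611 and 674 and was 1.42-fold higher, just under the 1.5-fold mark, ranking 383rd from the highest. NPC2, the soluble protein that hands cholesterol to NPC1 in the lysosome, was the brightest member, with 8613 and 7863, and stood at 0.16. STARD4, a cytosolic sterol carrier, was below the detection limit with 74 and 77.3.

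Genes with more than 1 probe give a further reading of a difference from the same RNA on the same arrays. The gap between such probes therefore does not measure the variation between arrays, labellings or cultures. In the 1677 genes that had several probes detected on both arrays, the difference of a further probe lay a median of 0.20 from that of the brightest probe, and 90% of such gaps were under 0.52. Of the 24 members, 12 had differences that were larger in size than the median gap, as were 45.9% of genes detected on both arrays. CYP51A1 and INSIG1 were the 2 members beyond the 90th percentile of gaps, and 8.17% of genes detected on both arrays were. The 5 members with a further probe detected on both arrays were SQLE, LBR, MSMO1, DHCR7 and INSIG1. In each, both probes stood on the same side of the control after quantile normalization. The share of the 1677 genes for which this holds was not computed, so the count has no background beside it.

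The signals as deposited were also compared. Of the 24 detected members, 4 were brighter on the AKBA array (16.7%), CYP51A1, INSIG1, NPC1 and DHCR7, and 10.3% of the genes detected on both arrays were. The ratio of AKBA to control signal was 1.31 for CYP51A1, 1.24 for INSIG1 and 1.10 for NPC1, and it was lowest for HSD17B7, 0.586, and NSDHL, 0.629. In the authors' processed values, CYP51A1 read 616 with the control and 998 with AKBA, INSIG1 1134 and 1704, and HSD17B7 753 and 494.

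**Figure D3:**
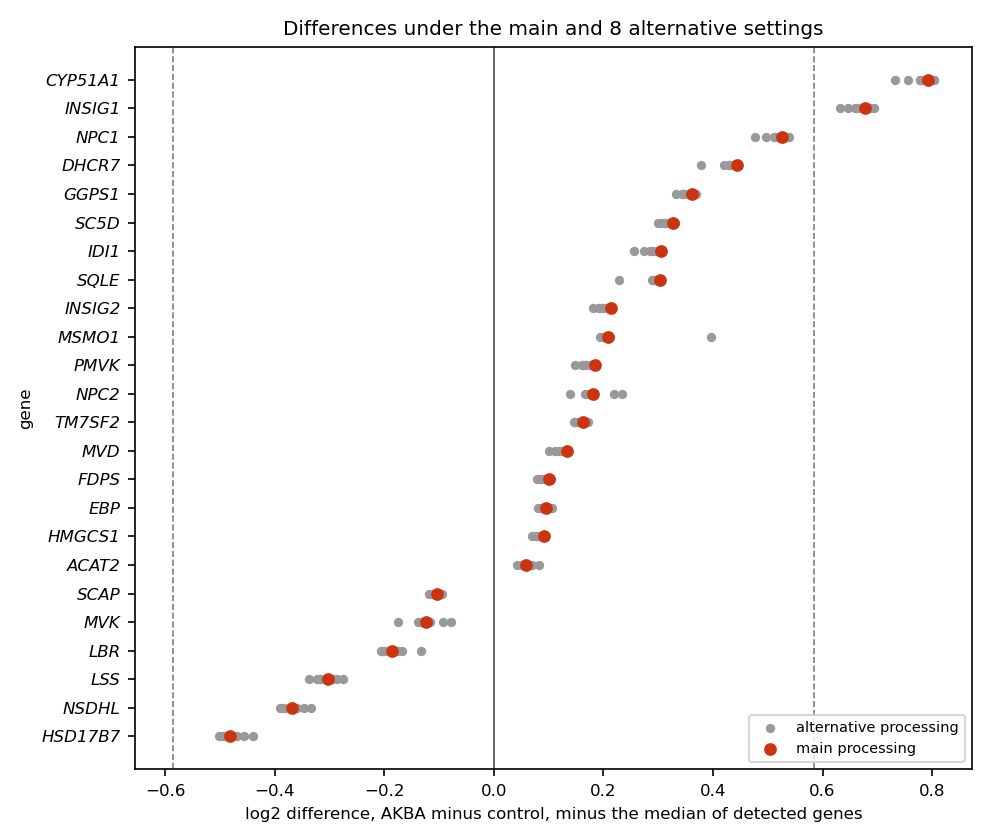
Log2 difference of each detected member relative to the median of detected genes, under the main processing (large points) and 8 alternatives (small points), ordered by the main value. Dashed lines mark 1.5-fold. CYP51A1 (0.73 to 0.80) and INSIG1 (0.63 to 0.69) stay beyond it under the settings drawn, and HSD17B7 runs from -0.50 to -0.44.

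Neighbouring lists of lipid genes were compared in the same way. The lists overlap: SREBF1, the gene of SREBP1, is counted both with SREBP processing and with the other lipid genes, and TMEM97 both with those and with transport. Of 9 genes listed for SREBP and its processing or for the sterol-driven decay of enzymes, 6 were detected, 0 passed 1.5-fold, and 6 stood above the median of detected genes, with a list median of 0.17. MBTPS2, the site-2 protease that releases SREBP from the membrane, had signals of 240 and 271 and stood at 0.58, and ERLIN1, a scaffold of the decay machinery, stood at 0.24. A second MBTPS2 probe was below the detection limit, with 112 and 103.

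Of 14 other lipid genes that SREBPs regulate, 11 were detected, 0 passed 1.5-fold and 8 stood above the median of detected genes. The desaturase SCD had signals of 4939 and 5673 and stood at 0.50. ATP citrate lyase (ACLY), which makes the acetyl-CoA of both sterol and fatty acid synthesis, had 2506 and 1483 with its brighter probe and stood at -0.46, and its other probe gave -0.11. The list of other lipid genes thus held members on both sides of the control, with a median of 0.13.

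Cholesterol esterification, transport and efflux had 12 of 18 genes detected, and 7 of these stood above the median of detected genes. None passed 1.5-fold with its brightest probe. Caveolin 1 (CAV1), the scaffold of caveolae, had signals of 4758 and 2574 and stood at -0.57, and its second probe gave -0.79. STARD3, a sterol transfer protein of late endosomes, was detected on the control array only, with signals of 163 and 120.4. It is counted below the median of detected genes, but its side is not established. The other 11 genes were detected on both arrays. The efflux transporters ABCA1 and ABCG1 were below the detection limit with each of their probes.

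The branch that leads from farnesyl and geranylgeranyl diphosphate to dolichol, ubiquinone and protein prenylation had 13 of 13 genes detected. Of these, 6 stood above the median of detected genes and 7 below, with a list median of -0.13. The 7 and the list median include NUS1 and RABGGTA, whose values are only bounds. Over the 11 genes detected on both arrays, the middle value was -0.004. NUS1, a subunit of the dolichol synthase, and RABGGTA, a subunit of the enzyme that attaches geranylgeranyl groups to Rab proteins, were past 1.5-fold in normalized signal but were detected on the control array only. Set against the lowest detected signal of the AKBA array, NUS1 was at least 1.01-fold and RABGGTA at least 1.09-fold higher in the control, so their sizes are uncertain.

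**Figure D4:**
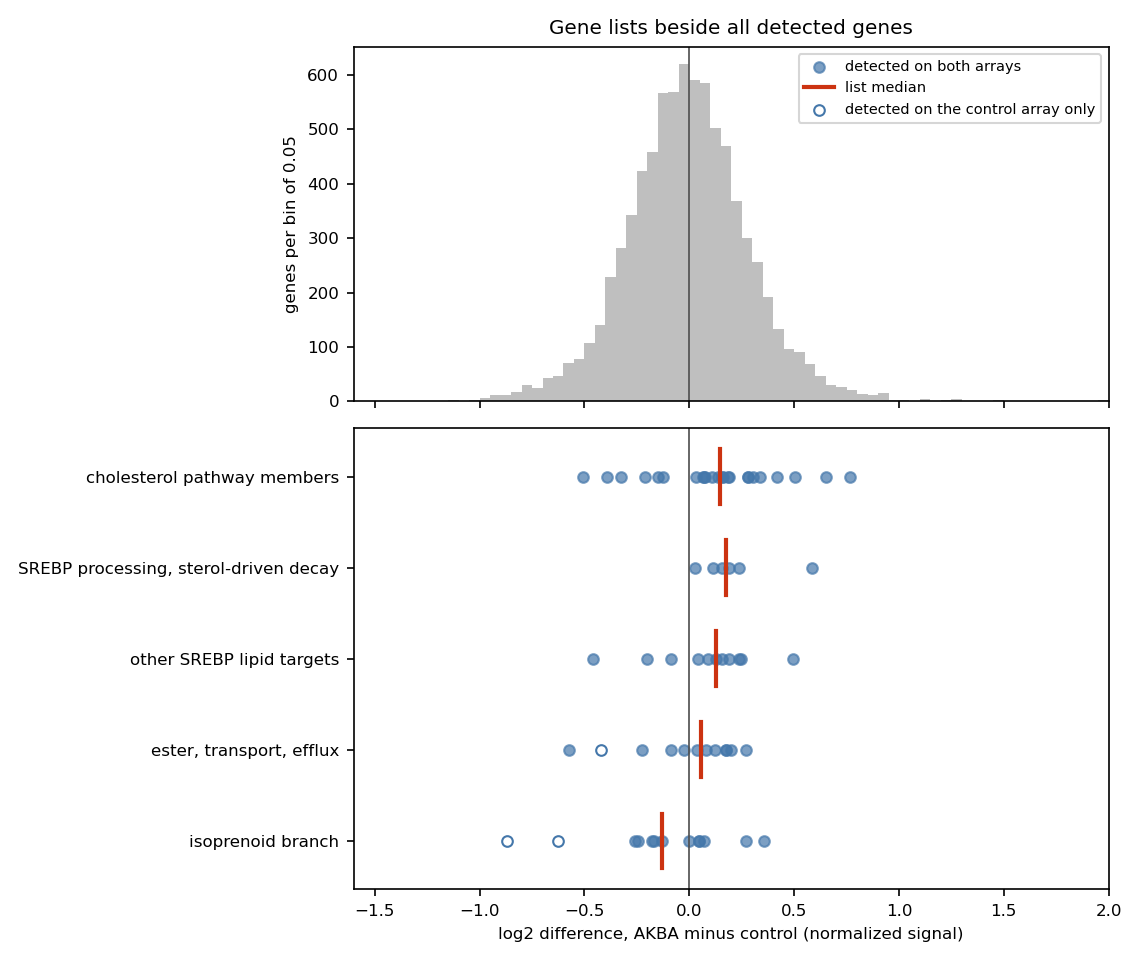
Upper panel, number of genes per bin of 0.05 in log2 difference (AKBA minus control) among the 7930 genes detected on both arrays, with values beyond the axis pooled at its ends. Lower panel, brightest detected probe of each gene in the members and 4 neighbouring lists, with list medians as bars. Filled points were detected on both arrays and open points on the control array only. The members have a median of 0.15 and the isoprenoid branch -0.13. The branch median includes its open points, and the middle value of its 11 filled points is -0.004.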

How the data were processed

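Total RNA of SW48 cells was column-extracted and labelled as complementary RNA for Illumina arrays, per the labels' protocols. The values show that the deposited signal intensity of a probe is neither background subtracted nor scaled; a deposited detection p-value stands beside it. The authors' processed intensity values are a linear function of these signals (slopes 1.00 and 1.20, intercepts -74.7 and -86.5 for control and AKBA), with a mean of 352 on both arrays and medians of 6.50 and 7.63. The sources used here do not name the software.

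Signals were processed with neqc of limma 3.58.1 (R 4.3.3; offset 16, quantiles, log2), tested on simulated data; tables and figures used Python 3.11.15. Of the probes, 28098 are annotated to 1 gene, 13 to several and 20692 to none; 28059 of the first were matched to the RefSeq table of GRCh38.p14, which was used for names, pseudogene entries and promoters. A gene is represented by its probe with the highest mean normalized signal and compared if detected on at least 1 array. A gene detected on 1 array has only a bound, with the other side at the lowest detected signal or its own, whichever is higher.

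All 27 members are named, and of each neighbouring list the genes past 1.5-fold or, with none, the 2 largest differences; ERLIN1 was in its list's pair, and ABCA1 and ABCG1 were named after their values were seen. Members and lists were chosen with earlier results of these data known, and the motif lengths after the promoters had been searched; other motifs searched (shorter sterol elements, GC boxes, E-boxes and the like) are not reported. Alternatives were an offset of 50, no background correction, equal medians, loess, the processed values floored at 16, a detection p under 0.05, no detection filter, the mean over probes, and a lower and a higher fold. Precision is limited by having 1 array per group.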

Additional observations from a re-analysis of the deposited data

How the results depend on the processing

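Relative to the median of detected genes, each of the 24 members kept its side of that median under all 8 alternatives of normalization, detection and probes, and the median over the members ran from 0.15 to 0.17. The detection settings left the difference of each of the 24 as it was, so only the median of detected genes moved. The mean over probes could change only members with several detected probes. The side of the control itself was less stable. As normalized, CYP51A1, INSIG1, NPC1, DHCR7 and GGPS1 stood above the control under each of these settings. MVK, LSS, LBR, NSDHL, HSD17B7 and SCAP stood below it under each. The other detected members changed side, as SQLE did, from -0.03 to 0.28. Equal medians moved the median of detected genes to -0.32 and the authors' processed values to -0.11. As normalized, equal medians therefore left 0 members higher and 3 lower by 1.5-fold (LSS, NSDHL and HSD17B7), and the processed values 2 higher and 1 lower (HSD17B7), while relative to that median both gave 2 higher and 0 lower. At a log2 mark of 0.32, 5 members were higher and 3 lower as normalized, and 6 and 2 relative to the median; at 2-fold, 0 were higher and 0 lower. A detection p under 0.05 or no filter gave 3 higher members by adding SREBF2, whose control signal had a detection p of 0.0975. No paired analysis was possible because each group has 1 array. Signals near the lowest detected one, as for MVK and MVD, leave the size of a difference dependent on the background correction.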
